A study of Homo sapiens with 26 samples.

Results

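The 7 genes described here encode the proteins of the complex that holds P-TEFb inactive on 7SK RNA. They were taken from the deposited table by symbol and are the inhibitors HEXIM1 and HEXIM2, the 7SK-binding proteins LARP7 and MEPCE, the kinase CDK9 and its cyclins CCNT1 and CCNT2. All 7 of 7 were found among the 25745 genes of the table, and all 7 passed the filter on low values, as did 22284 genes in all. HEXIM1 drew attention to the complex through its labeled minus control values in these libraries, so those values are given as a description without a test. The other 6 genes follow from membership of the complex.

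P-TEFb is the kinase complex that phosphorylates RNA polymerase II and its pausing factors, which lets paused polymerase move into productive elongation. In the nucleus, a large pool of P-TEFb is kept inactive by HEXIM proteins bound to 7SK, a small noncoding RNA that MEPCE caps at its 5′ end and LARP7 holds at its 3′ end. Release of P-TEFb from 7SK accompanies stress and transcriptional inhibition, and HEXIM1 is a known target of the P-TEFb system itself, since its transcription rises when P-TEFb is set free.

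The study used APEX-seq in HEK293T, a line of human embryonic kidney cells that carries the large T antigen of SV40. The peroxidase APEX2, supplied with hydrogen peroxide, converts biotin-phenol to radicals that tag nearby RNA for streptavidin capture. Cells stably expressed APEX2 fused to Lyn11 or Lck sequences, which place it inside the plasma membrane, or to CD28 or PDGFR sequences, which place it outside. The labeled groups of Lyn11, Lck, CD28 and PDGFR held 4, 3, 3 and 3 libraries, and the unlabeled control groups of the same constructs held 4, 3, 3 and 3, for 26 libraries in all. Per the labels, cells took up biotin-phenol for 30 min and then received 1 mM hydrogen peroxide for 1 min. The labels list these steps, and the streptavidin capture, for control libraries too, and the step that was left out of the controls is not given in the sources used here. Whether a stable line came from 1 clone or a pool of cells, and the promoter of the fusion, are likewise not given. The design text calls the libraries of a group biological replicates, and p-values measure the spread between these libraries.

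Recovered reads per library numbered 19.99 to 35.57 M (1e6) for the inside constructs and 11.6 to 16.62 M for the outside constructs, so side and depth cannot be told apart. Replicate 2 of labeled CD28 cells had 3147 genes without a read and replicate 2 of the PDGFR controls had 3024, more than any other library. Of the genes used to check the line, VIM, NEFL, NEFM and PAX2 had median log2 FPKM of 5.68, 4.15, 3.27 and 0.65, whereas the blood and fibroblast markers CD3E, CD14 and LUM had 0 reads in at least 1 library. COL1A1, a fibroblast collagen, had a median of 2.60. In these bulk libraries, RNA from fewer cells and less RNA per cell cannot be told apart.

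The 7SK RNA that joins the proteins has a 5′ hairpin with repeated GAUC, the element that HEXIM1 is known to bind. Its first 110 bases (GENCODE 29, GRCh38) are shown because the copies measured here are judged by their likeness to it, with GATC in capitals. RN7SK lies at chr6:52995621-52995948 on the plus strand and was not analysed here. RN7SKP203 at chr2:76445079-76445410 on the minus strand, RN7SKP271 at chr20:35643143-35643462 on the plus strand and RN7SKP80 at chr22:42565048-42565330 on the minus strand were measured.
RN7SK: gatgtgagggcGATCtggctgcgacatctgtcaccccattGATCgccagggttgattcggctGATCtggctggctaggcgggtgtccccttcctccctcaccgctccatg
RN7SKP203: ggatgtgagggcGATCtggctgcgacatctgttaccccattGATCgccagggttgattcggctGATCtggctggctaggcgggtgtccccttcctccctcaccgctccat
RN7SKP271: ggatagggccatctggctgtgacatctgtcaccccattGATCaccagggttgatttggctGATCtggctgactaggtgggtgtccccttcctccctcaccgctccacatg
RN7SKP80: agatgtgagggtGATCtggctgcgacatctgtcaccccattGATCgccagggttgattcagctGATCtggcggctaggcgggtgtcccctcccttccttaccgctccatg

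HEXIM1 RNA was higher in every labeled library than in every control library of the same construct, for all 4 constructs. HEXIM1 (ENSG00000186834.3) is a gene of 1 exon and 1 transcript at chr17:45148502-45152101 on the plus strand of GRCh38, and its protein inhibits P-TEFb. In Lyn11 cells its log2 FPKM was 5.02, 4.99, 4.90 and 5.27 in the labeled libraries and 4.65, 4.23, 4.14 and 4.01 in the controls. In Lck cells it was 4.89, 4.76 and 4.90 in the labeled libraries and 3.98, 3.99 and 4.11 in the controls. On the inner side the lowest labeled library therefore lay above the highest control, by the narrowest margin in Lyn11 cells, where control replicate 1 was the highest control. In CD28 cells the labeled libraries had 5.37, 5.18 and 5.59 and the controls 4.93, 4.58 and 4.35. In PDGFR cells the labeled libraries had 5.41, 5.56 and 5.18 and the controls 4.80, 4.66 and 4.81. The groups did not overlap there either. Among all tested genes, 114 genes, or 0.512%, had every labeled library above every control in all 4 constructs. Within single constructs that share was 3.4% in Lyn11 cells, 12.9% in Lck cells, 7.44% in CD28 cells and 7.53% in PDGFR cells.

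As FPKM, HEXIM1 averaged 33.1 ± 3.80 in labeled Lyn11 cells and 19.4 ± 3.97 in their controls (SD, n = 4 each). The means were 28.8 ± 1.49 in labeled Lck cells and 16.3 ± 0.808 in their controls, 41.9 ± 6.06 in labeled CD28 cells and 24.9 ± 5.10 in their controls, and 41.9 ± 5.58 in labeled PDGFR cells and 27.0 ± 1.51 in their controls (SD, n = 3 each). These levels rested on 1827 to 3257 reads in labeled libraries and 909 to 2837 reads in controls. The labeled minus control difference was 0.79 ± 0.14 log2 units in Lyn11 cells, 0.82 ± 0.16 in Lck cells, 0.76 ± 0.16 in CD28 cells and 0.63 ± 0.16 in PDGFR cells (standard error of the limma fit). Averaged over the 4 constructs it was 0.75 ± 0.08, a fold of 1.68. Under the 35 alternatives tried for the average it ran from 0.71 to 0.79, and it was 0.76 without the 2 libraries with most genes at 0 reads.

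**Figure D1:**
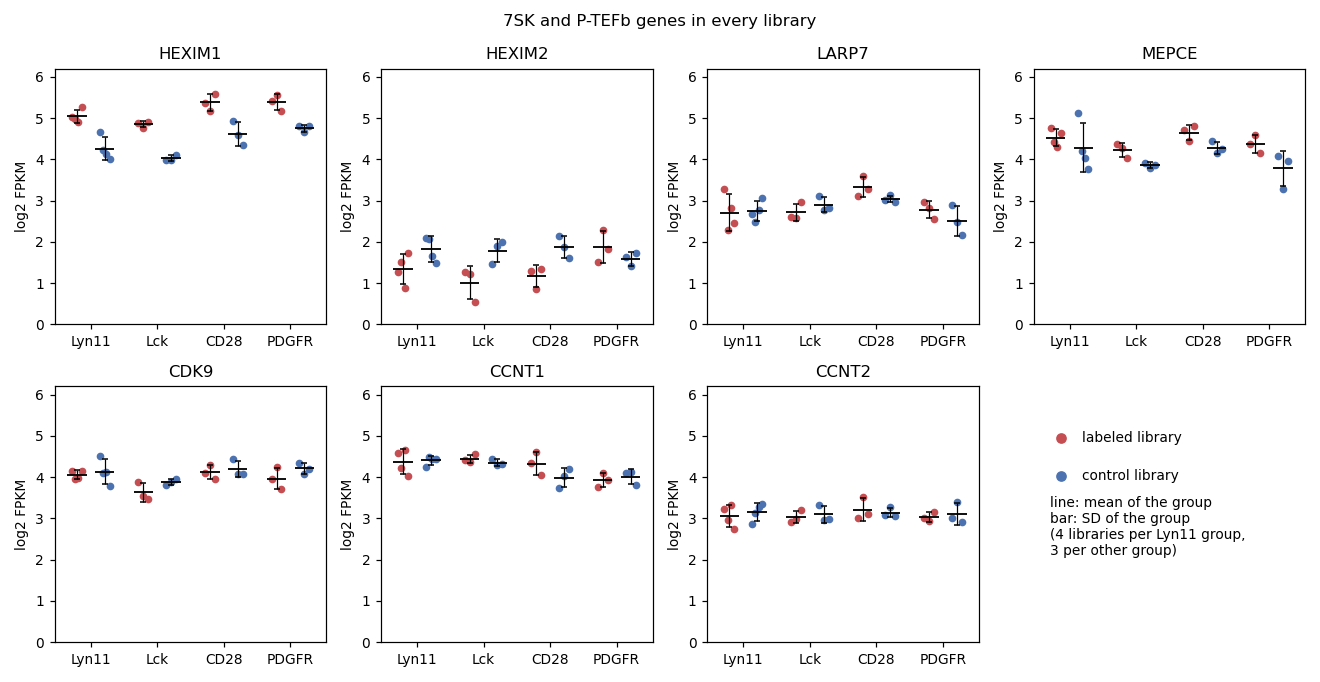
Log2 FPKM (vertical axis) of the 7 genes in each of the 26 libraries, by construct, with labeled libraries in red left of controls in blue. Lines are group means and bars the SD, over 4 libraries per Lyn11 group and 3 per other group. HEXIM1 was the gene whose labeled and control libraries did not overlap in any of the 4 constructs.

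HEXIM1 was chosen on these contrasts, so no call is given for it here. With a call at a Benjamini-Hochberg adjusted p under 0.05 in limma, no other member was called in any construct. Of all tested genes, 0.579% were called in Lyn11 cells, 0.794% in Lck, 0.476% in CD28 and 2.13% in PDGFR cells. Over the average of the 4 constructs, MEPCE was the only other member called, beside 7.37% of all tested genes. The median average difference of the 7 was 0.08 log2 units, beside -0.005 for all tested genes. By construct the median of the 7 was -0.04 in Lyn11 and -0.06 in Lck cells, beside -0.03 and -0.04 for all tested genes, and 0.30 in CD28 and 0.27 in PDGFR cells, beside 0.025 in both. The members went in both directions, so these medians do not stand for any 1 of them. The part of HEXIM1 in these medians is a description for the same reason that no call is given for it.

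HEXIM2, the paralog that can also bind 7SK and inhibit P-TEFb, showed the opposite sign to HEXIM1 in 3 of the 4 constructs. HEXIM2 (ENSG00000168517.10) lies 8598 bases beyond the end of HEXIM1, at chr17:45160700-45170040 on the same strand. In Lyn11 cells its log2 FPKM was 1.27, 1.51, 0.88 and 1.72 in the labeled libraries and 2.102, 2.06, 1.65 and 1.48 in the controls. In Lck cells it was 1.27, 1.23 and 0.54 in the labeled libraries and 1.47, 1.89 and 1.99 in the controls. All labeled Lck libraries were below their controls, whereas the Lyn11 groups overlapped. In CD28 cells the labeled libraries had 1.28, 0.86 and 1.35 and the controls 2.15, 1.87 and 1.60. In PDGFR cells the labeled libraries had 1.51, 2.29 and 1.83 and the controls 1.62, 1.40 and 1.74. The CD28 libraries were again all lower when labeled, and the PDGFR groups overlapped. Labeled libraries were all below their controls for 13.2% of all tested genes in Lck cells and 6.59% in CD28 cells.

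The labeled minus control difference of HEXIM2 was -0.48 ± 0.23 log2 units in Lyn11 cells, -0.77 ± 0.27 in Lck, -0.71 ± 0.27 in CD28 and 0.29 ± 0.27 in PDGFR cells. None of these passed, with limma adjusted p of 0.88, 0.315, 0.242 and 0.705. The average of -0.42 ± 0.13 missed the threshold at an adjusted p of 0.0513. It passed in 6 of 35 alternatives, among which the adjusted p ran from 0.0296 to 0.129. HEXIM2 had only 51 to 156 reads in labeled libraries and 73 to 273 in controls, which limits its precision beside that of HEXIM1.

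Set against each other within each library, HEXIM1 exceeded HEXIM2 by more in the labeled libraries of every construct. The log2 excess of HEXIM1 over HEXIM2 was 3.70 ± 0.25 in labeled Lyn11 cells and 2.43 ± 0.18 in their controls (SD, n = 4 each). It was 3.84 ± 0.45 in labeled Lck cells and 2.24 ± 0.23 in their controls, 4.22 ± 0.12 in labeled CD28 cells and 2.75 ± 0.04 in their controls, and 3.51 ± 0.34 in labeled PDGFR cells and 3.17 ± 0.09 in their controls (SD, n = 3 each). The groups did not overlap in any construct, although in PDGFR cells the lowest labeled library, at 3.27, lay just above the highest control, at 3.26. This within-library difference does not depend on library scaling, and it carries over the HEXIM1 values that drew attention to the complex. HEXIM1 alone did not overlap in any construct either. The share of gene pairs that separate in this way was not computed, so nothing is read from the separation.

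**Figure D2:**
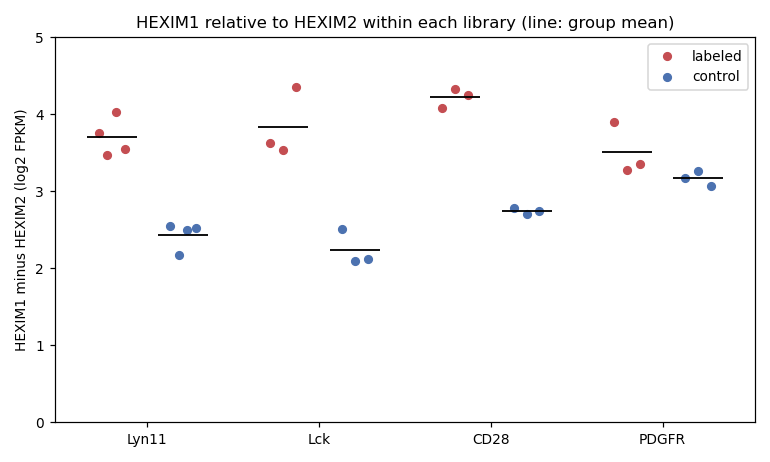
Log2 FPKM of HEXIM1 minus that of HEXIM2 (vertical axis) in each library, by construct, with labeled libraries in red left of controls in blue and lines at the group means. The labeled means lay between 3.51 and 4.22 and the control means between 2.24 and 3.17.

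Reads from opposite strands cannot be told apart here, since the strandedness of the libraries is not given. The antisense gene AC138150.1 overlaps HEXIM1 by 1702 bases and HEXIM2 by 811 bases, at a mean log2 FPKM of -0.58 and with an average labeled minus control difference of -0.19 (limma adjusted p = 0.913). A further antisense gene, AC138150.2, overlaps HEXIM2 by 1241 bases at a mean log2 FPKM of -2.39 and did not pass the filter on low values. Of the 12 other genes tested within 100000 bases of HEXIM1, 0 were called higher and 1 lower in the average, beside 7.37% of all tested genes in either direction. The lower one was AC008105.2, at -1.19 ± 0.22 log2 units (limma adjusted p = 0.00137).

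MEPCE, the methyltransferase that caps the 5′ end of 7SK, was the second member with higher values in labeled libraries. MEPCE (ENSG00000146834.13) lies at chr7:100428790-100434126 on the plus strand. In Lyn11 cells its log2 FPKM was 4.77, 4.41, 4.29 and 4.63 in the labeled libraries and 5.13, 4.21, 4.03 and 3.78 in the controls. Lyn11 control replicate 1 was the highest of all 26 libraries for MEPCE, and so the Lyn11 groups overlapped. In Lck cells the labeled libraries had 4.37, 4.27 and 4.04 and the controls 3.92, 3.78 and 3.87. In CD28 cells the labeled libraries had 4.70, 4.45 and 4.80 and the controls 4.44, 4.15 and 4.25. In PDGFR cells the labeled libraries had 4.37, 4.60 and 4.16 and the controls 4.09, 3.28 and 3.96. In these 3 constructs every labeled library was above every control, narrowly so in CD28 cells. That held for 12.9% of all tested genes in Lck cells, 7.44% in CD28 cells and 7.53% in PDGFR cells.

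The labeled minus control difference of MEPCE was 0.24 ± 0.22 log2 units in Lyn11 cells, 0.37 ± 0.25 in Lck, 0.37 ± 0.25 in CD28 and 0.60 ± 0.25 in PDGFR cells. None passed in a single construct, with limma adjusted p of 1, 1, 0.534 and 0.264. The average of 0.40 ± 0.12 passed at an adjusted p of 0.0494, a fold of 1.315 with a 95% interval of 1.105 to 1.565. The call held in 11 of 35 alternatives, with adjusted p from 0.00217 to 0.0922, and was lost at 0.0683 without the 2 libraries with most genes at 0 reads. Leaving out Lyn11 control replicate 1 gave the largest average, 0.47, and leaving out PDGFR control replicate 2 the smallest, 0.33. ZCWPW1, on the opposite strand, overlaps MEPCE by 203 bases and had a difference of -0.32 (limma adjusted p = 0.387).

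LARP7, the protein that binds the 3′ end of 7SK and keeps it stable, gave no call in any construct or on average. LARP7 (ENSG00000174720.15, chr4:112636964-112657592, plus strand) had a median log2 FPKM of 2.83 over the 13 labeled libraries, from 2.28 to 3.59, and 2.81 over the 13 controls, from 2.17 to 3.12. The groups overlapped in all 4 constructs. Its average difference was 0.09 ± 0.11 log2 units (limma adjusted p = 0.753), with a 95% interval of -0.14 to 0.31. By construct the difference was -0.04 in Lyn11, -0.18 in Lck, 0.30 in CD28 and 0.27 in PDGFR cells. The antisense gene AC106864.1 overlaps LARP7 by 3576 bases and differed by -1.42 (limma adjusted p = 0.133).

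The 3 subunits of P-TEFb itself also gave no call between labeled and control libraries. CDK9 (ENSG00000136807.13, chr9:127785679-127790787, plus strand), the kinase, had a median log2 FPKM of 3.97 in labeled libraries, from 3.46 to 4.30, and 4.09 in controls, from 3.80 to 4.51. Its difference was below 0 in all 4 constructs, at -0.07, -0.25, -0.08 and -0.24 for Lyn11, Lck, CD28 and PDGFR, and its average was -0.16 ± 0.08 (limma adjusted p = 0.284), with an interval of -0.32 to 0.01. Labeled and control libraries of CDK9 overlapped in every construct. Under median centring the CD28 value changed sign, to 0.05.

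CCNT1 (ENSG00000129315.10, chr12:48688458-48716998, minus strand) encodes cyclin T1, the main cyclin partner of CDK9 and the one that HIV Tat uses. Its median log2 FPKM was 4.33 in labeled libraries, from 3.76 to 4.66, and 4.26 in controls, from 3.75 to 4.48. The largest of its construct differences was 0.34 ± 0.16 for CD28 (limma adjusted p = 0.367), and the average was 0.08 ± 0.08 (adjusted p = 0.645). CCNT2 (ENSG00000082258.12, chr2:134918235-134959342, plus strand) encodes cyclin T2, the alternative partner. Its median was 3.02 in labeled libraries, from 2.74 to 3.53, and 3.08 in controls, from 2.86 to 3.41, and the average difference was -0.04 ± 0.09 (limma adjusted p = 0.881). The interval of the average was -0.08 to 0.25 for CCNT1 and -0.22 to 0.14 for CCNT2, both well short of the HEXIM1 value. Groups overlapped in all 4 constructs for both cyclins.

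**Figure D3:**
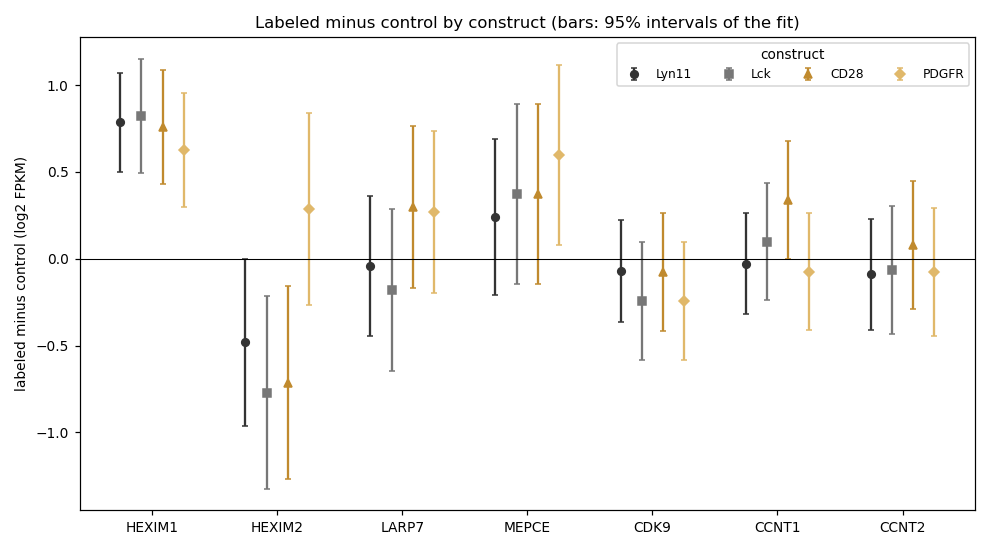
Labeled minus control difference in log2 FPKM (vertical axis) for each of the 7 genes in Lyn11, Lck, CD28 and PDGFR cells, with bars for the 95% intervals of the limma fit. HEXIM1 lay between 0.63 and 0.82 in all 4 constructs, HEXIM2 was below 0 in 3 of 4, and MEPCE was above 0 in all 4.

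The differences of the members were next compared between the sides of the membrane. The inside minus outside test asks whether the mean Lyn11 and Lck difference exceeds the mean CD28 and PDGFR difference. None of the 7 genes was called, beside 0.00449% of all tested genes. In limma, 0 of 7 had an unadjusted p under 0.05, beside 6.52% of all tested genes, so nothing is read from the count of 0. limma voom on recovered reads called 0 with 0 under 0.05, beside 6.85%. HEXIM1 gave 0.11 ± 0.15 log2 units, with an interval of -0.205 to 0.43. HEXIM2 gave -0.41 ± 0.26, LARP7 -0.39 ± 0.22 and MEPCE -0.18 ± 0.24 (adjusted p of 0.787, 0.769 and 0.909). The intervals of these 3 genes were -0.95 to 0.12, -0.84 to 0.06 and -0.68 to 0.32, so they hold 0 as well as differences the size of the HEXIM2 average.

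Levels in the control libraries differed between sides for HEXIM1 and CCNT1, in opposite directions. HEXIM1 was lower in the inside controls, with means of 4.26 ± 0.28 for Lyn11 and 4.02 ± 0.07 for Lck, than in the outside controls, with 4.62 ± 0.29 for CD28 and 4.76 ± 0.08 for PDGFR (log2 FPKM, SD). The difference was -0.55 ± 0.11 (limma adjusted p = 0.00302), and it stayed called in 21 of 21 alternatives. Labeled HEXIM1 means had the same order, at 5.04 and 4.85 inside and 5.38 and 5.38 outside. CCNT1 was higher in the inside controls, with 4.41 ± 0.10 for Lyn11 and 4.35 ± 0.085 for Lck, than in the outside controls, with 3.99 ± 0.23 for CD28 and 4.01 ± 0.18 for PDGFR. That difference of 0.38 ± 0.11 (limma adjusted p = 0.0325) was called in 13 of 21 alternatives. The other 5 genes were not called, and 11.2% of all tested genes were. The depth of the libraries differs between the same sides, and its part in these 2 results cannot be told apart from that of the constructs. The p-values measure the spread between libraries within constructs, not the spread between the constructs of a side.

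Ordered by FPKM in the controls, which is a level per length, HEXIM1 came first at a mean log2 of 4.40 ± 0.35 (SD, n = 13), then CCNT1 at 4.21, CDK9 at 4.11 and MEPCE at 4.07. This pooled order was not that of each construct. In the inside controls CCNT1 was above HEXIM1, at 4.41 and 4.26 in Lyn11 cells and 4.35 and 4.02 in Lck cells, and in the outside controls it was below, at 3.99 and 4.62 in CD28 cells and 4.01 and 4.76 in PDGFR cells. HEXIM1 was above CCNT1 in 1 of 7 inside controls, Lyn11 replicate 1, and in 6 of 6 outside controls. Neighbours among these 4 were not separated beyond their spread, at two-sided exact sign-flip permutation p of 0.237, 0.394 and 0.639 over the 13 libraries, and the first of these mixes the opposite orders of the sides. CCNT2 at 3.13, LARP7 at 2.79 and HEXIM2 at 1.77 followed. Each of the steps from MEPCE to CCNT2, CCNT2 to LARP7 and LARP7 to HEXIM2 was larger than the spread, with permutation p of 0.000977, 0.000732 and 0.000732 adjusted over the 6 steps. In labeled libraries HEXIM1, at 5.15 ± 0.27, was above MEPCE, at 4.45, in 13 of 13 libraries, and MEPCE came before CCNT1, at 4.28, and CDK9, at 3.96. MEPCE was above CCNT1 in only 8 of 13 labeled libraries, so these 2 were not separated beyond their spread (sign-flip permutation p = 0.144). CCNT2, LARP7 and HEXIM2 kept the last places in labeled libraries, at 3.09, 2.87 and 1.35.

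The genes whose pattern was most like that of HEXIM1 were named by Pearson correlation over the 26 libraries after each construct's mean was subtracted. They are a description, since the libraries share the labeled and control split. The 5 closest of 15090 genes were SNORD3B-1, AC007952.4, RF00004, RPS9 and SNORD3B-2, at r of 0.950, 0.948, 0.944, 0.940 and 0.933. SNORD3B-1 and SNORD3B-2 are U3 small nucleolar RNA genes, copies that share reads, RF00004 is a small nuclear RNA gene named for the U2 family, AC007952.4 is a long noncoding RNA gene and RPS9 encodes a protein of the small ribosomal subunit. Their average labeled minus control differences were 2.07, 2.35, 1.39, 1.04 and 2.37 log2 units (in the order SNORD3B-1, AC007952.4, RF00004, RPS9, SNORD3B-2), all above the 0.75 of HEXIM1. In that order their lowest libraries held 33, 70, 150, 92 and 104 reads, and RPS9 had a mean log2 FPKM of only 1.58. Among the members, MEPCE was nearest to HEXIM1, at r of 0.745 and rank 174. LARP7 had 0.05, CCNT1 -0.01, CDK9 -0.14, CCNT2 -0.345 and HEXIM2 -0.365.

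The absence of introns in HEXIM1 was set against the class of such genes. Of 296 tested coding genes with 1 exon in every transcript, HEXIM1 included, 22 (7.43%) were higher and 6 (2.03%) lower in the average, with a median difference of 0.02 log2 units. Of 12641 coding genes with more exons, 477 (3.77%) were higher and 157 (1.24%) lower, with a median of 0.01. These shares are a description of the classes, and most genes of 1 exon did not share the HEXIM1 value.

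Reads from the 7SK copies showed no difference between labeled and control libraries beyond the spread. The 51 genes named as 7SK copies, RN7SK not among them, were summed, since copies alike in sequence can share reads. The sum therefore does not speak for RN7SK itself. Of the 51 copies, 50 were annotated as miscellaneous RNA. The other, RN7SKP23, with 7.21% of the summed reads, has 4301 annotated bases and a type that marks genes awaiting experimental tests. In Lyn11 cells the sum was 53.4 ± 13.1 reads per M recovered reads in labeled libraries and 49.8 ± 1.72 in controls (SD, n = 4 each). It was 75.2 ± 6.85 in labeled Lck cells and 70.9 ± 1.67 in their controls, 57.6 ± 14.98 in labeled CD28 cells and 72.2 ± 3.06 in their controls, and 71.8 ± 6.30 in labeled PDGFR cells and 73.1 ± 7.42 in their controls (SD, n = 3 each). CD28 labeled replicate 2, 1 of the 2 libraries with most genes at 0 reads, had the lowest CD28 value, 40.9. The mean labeled minus control difference was -0.06 log2 units (two-sided exact permutation p = 0.54 over 560000 relabelings within constructs), and between -0.10 and -0.002 under the alternatives. Over the 50 miscellaneous RNA genes, a sum chosen after seeing the data, it was -0.065 (exact permutation p = 0.541).

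RN7SKP203, shown with the sequences at the start, held 20.3% of the reads summed over the 51 copies. It was identical to RN7SK at 92.6% of aligned bases, with GATC present 3 times in its first 110 bases as in RN7SK. Its average difference was -0.07 (limma adjusted p = 0.916). RN7SKP271 has GATC 2 times there, matches RN7SK at 86.7% of aligned bases and differed by 0.34 (adjusted p = 0.473). RN7SKP80 matches at 95.7% of aligned bases and differed by -0.10 (adjusted p = 0.901). Only 278 of its bases align to the 328 of RN7SK, against 309 for RN7SKP203. Of the 51 copies, 1 was called higher, RN7SKP264, and 3 were called lower, RN7SKP9, RN7SKP74 and RN7SKP1, named after their values were seen. Since 7.37% of all tested genes were called in the average, the 4 calls among 51 copies are near the background.

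**Figure D4:**
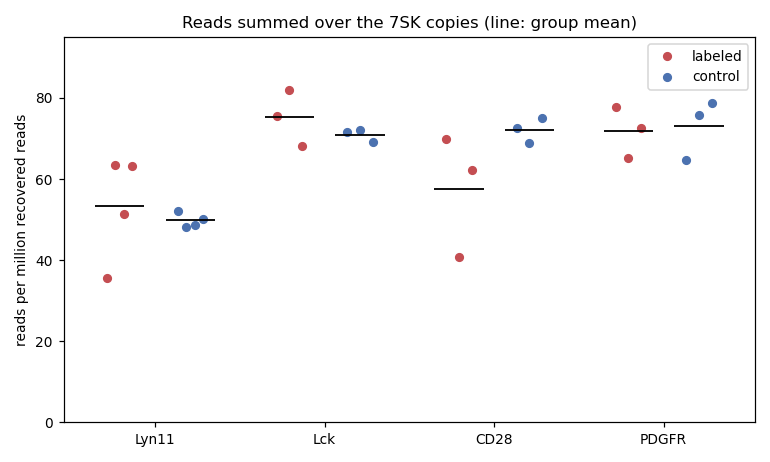
Reads per M (1e6) recovered reads summed over the 51 7SK copies (vertical axis, from 0) in each library, by construct, with labeled libraries in red left of controls in blue and lines at the group means. Labeled and control values overlapped in Lyn11, Lck, CD28 and PDGFR cells.

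The wider pathway was followed in 6 lists with 50 genes, of which 48 were tested. ELL3 did not pass the filter on low values, and NELFE was not analysed here. In limma, 0 of 48 were called in any of the 4 constructs or in the average. At an unadjusted p under 0.05 there were 0 in Lyn11 cells, 1 in Lck, 5 in CD28 and 1 in PDGFR cells, and 1 in the average, beside 5.65%, 6.4%, 13.5%, 14.1% and 19.2% of all tested genes. limma voom on recovered reads also called 0 in each. The median average difference of the 48 genes was 0.03 log2 units, against -0.005 for all tested genes. The CD28 median was 0.20 against 0.025 for all tested genes. Coding genes with more than 1 exon had a CD28 median of 0.11. Median centring moved the CD28 median of all tested genes to 0.15. It shifts every gene of CD28 cells alike, so it leaves the gap between the list and all tested genes unchanged. The size of any single CD28 difference depends on that scaling.

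The 5 hnRNPs and helicase that bind 7SK after P-TEFb leaves it had a median average difference of 0.085. In CD28 cells HNRNPA1, an RNA-packaging protein, had 0.44 and DHX9, an RNA helicase, 0.38, neither called. The 10 release and recruitment factors had a median of 0.03, with PPM1G, a protein phosphatase, at 0.11 ± 0.10 and the splicing factor SRSF2 at 0.14 ± 0.13. Of the super elongation complex, whose members carry active P-TEFb, 9 of 10 genes were tested, with a median of 0.025. Its scaffold AFF4 had 0.02 ± 0.085, and the elongation factor ELL2 had the highest value there, 0.33 ± 0.12 (limma adjusted p = 0.105).

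The 5 pausing factors tested had a median of 0.02, with NELFA at -0.05 ± 0.09 and SUPT5H at 0.03 ± 0.09. The 9 genes of other kinases acting on polymerase II had a median of 0.001, with CDK12 at 0.10 ± 0.05. CDK7, the kinase of TFIIH, had 0.87 ± 0.65 on only 2 to 380 reads (limma adjusted p = 0.533), so its value has a standard error many times that of HEXIM1. Its differences disagreed between constructs, at 0.35 in Lyn11, 0.67 in Lck, -0.87 in CD28 and 3.32 in PDGFR cells. The 10 polymerase and elongation factors had a median of 0.03, with POLR2A, the largest subunit of RNA polymerase II, at 0.14 ± 0.075.

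Between inside and outside controls, 4 of the 48 pathway genes were called higher and 2 lower, a share of 8.33% and 4.17%, near the 7.34% and 3.84% of all tested genes. These were CDK19, AFF4, EAF1 and AFF3, at 0.51, 0.47, 0.38 and 0.37 log2 units, and CDK12 and HNRNPA2B1, at -0.245 and -0.48. They were named after their values were seen. HEXIM1, at -0.55, lay below all of these.

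**Figure D5:**
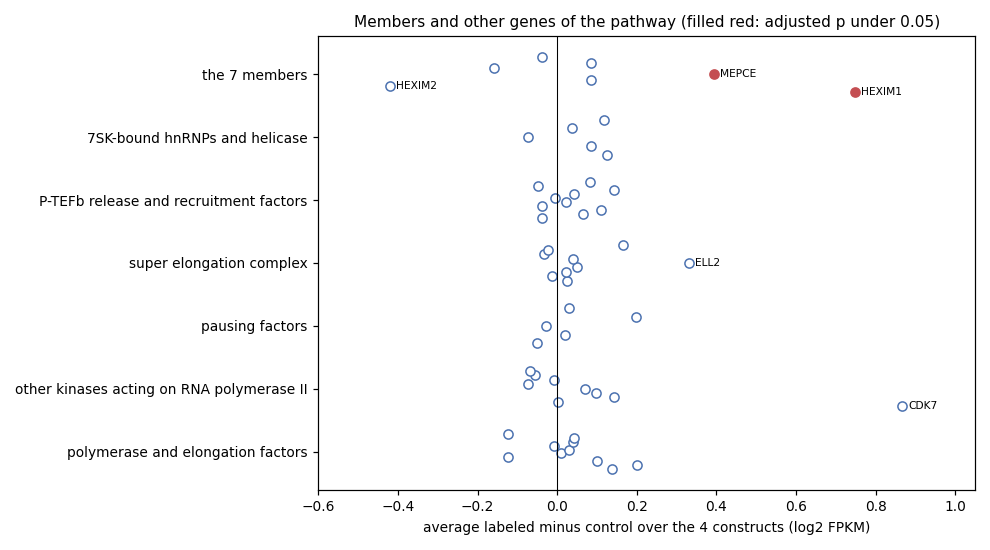
Average labeled minus control difference over the 4 constructs in log2 FPKM (horizontal axis) for the 7 members and the 48 tested genes of the 6 pathway lists, 1 point per gene, filled red where the limma adjusted p was under 0.05. HEXIM1 at 0.75 and MEPCE at 0.40 are the filled points, and CDK7 at 0.87 is open. The fill of HEXIM1 is no test of it, since it was chosen on these values.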

How the data were processed

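The deposited values are log2 FPKM per gene. HISAT2 2.1.0 and the build hg38 are listed in the submitters' processing notes, which also list edgeR, with no version. Gene IDs were matched to GENCODE 29 on GRCh38. The values carry a prior count of 1.003 reads, which shrinks differences of low genes, so no pseudocount was added. Undoing it gave whole reads (to within 0.05) for 100% of values under 100 reads in genes with a shared floor and 97.4% in the others, and library sizes that were 0.88 to 1.15 times the recovered totals. The 22284 genes whose log2 FPKM exceeded 0 in 3 or more libraries entered limma 3.58.1 (R 4.3.3), with a mean per group, an intensity trend and 18 residual degrees of freedom (20.87 after moderation). The two-sided p-values were adjusted by Benjamini-Hochberg over all tested genes and called at 0.05. Unless SD is named, ± gives the standard error from limma. The fit was tested on simulated data. The members, lists and tests were chosen with earlier results of these data known. Named genes were the 7 members, list genes called in the average and the 5 genes most correlated with HEXIM1. Others named are examples of their list, neighbours, overlapping genes or the called 7SK copies. Sequences are GENCODE 29 transcript sequences, with gene positions on GRCh38. The precision of low genes is limited by reads, and read numbers cover counting error only.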

Additional observations from a re-analysis of the deposited data

How the results depend on the processing

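Of 1064 alternative values for 48 member results, 977 counted as unchanged, 32 fell below the threshold, 7 passed it, 1 moved and 47 changed sign. Unchanged meant the same direction and side of the threshold, except for HEXIM1 labeled minus control in single constructs. There it meant the same direction and a shift smaller than the residual SD of the gene. The threshold was therefore not applied to HEXIM1 there. HEXIM1 kept its sign in all, and moved to 0.54 in CD28 cells with quantile normalization. The cause was not tested in any case. The planned edgeR fit on recovered reads was not run, since the deposited values are not counts, and limma voom, chosen after seeing the data, stood in its place. A sum over RN7SK alone was not run.

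Called genes numbered 129 in Lyn11, 177 in Lck, 106 in CD28 and 475 in PDGFR cells, 1642 in the average and 1 for inside minus outside. A mean log2 FPKM of at least 1 gave 74, 74, 64, 130 and 727 for the first 5. log2(FPKM + 1) gave 296 for Lck and 4 for inside minus outside. Quantile normalization gave 256 in Lyn11, 484 in Lck and 63 in CD28 cells and 4 for inside minus outside. Weights per construct (2.65 for Lck, 0.602 for PDGFR) gave 1831 for Lck, 15 for CD28, 119 for PDGFR and 0 for inside minus outside (1457 at an unadjusted p under 0.05). They also called HEXIM2 in Lck cells. limma voom gave 211, 296, 21 and 69 for the constructs and 0 for inside minus outside (1522 unadjusted). Each construct fitted alone gave 984 for Lck, 0 for CD28 (1525 unadjusted) and 15 for PDGFR. Leaving out CD28 labeled replicate 2 and PDGFR control replicate 2 gave 256 for Lyn11, 361 for Lck and 8 for inside minus outside. Of CD28 calls, 36.8% were higher, 51.9% with median centring and 58.7% with quantile normalization. Of Lck calls 95.5% were higher, and 83.7% with quantile normalization. Of calls between inside and outside controls, 65.7% were higher, and 80.1% with median centring.

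Same-numbered labeled and control libraries deviated together at over 0.1 in 3 of 13 pairs (-0.288 to 0.166), and 3 correlated best with their own number, so the numbers were not read as pairs. A replicate block gave 60, 64, 29 and 290 calls for the constructs, 1291 for the average and 0 for inside minus outside (1483 unadjusted). With the block HEXIM1 differed by 0.626 to 0.824 in single constructs and by 0.749 in the average. These values are a description, since HEXIM1 was chosen on these contrasts.

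Leaving out 1 library at a time gave 71 to 170 calls in Lyn11 cells, 74 to 101 in Lck, 42 to 464 in CD28 and 341 to 727 in PDGFR cells, 1293 to 1781 for the average, 0 to 6 for inside minus outside and 1492 to 2938 for inside minus outside controls. The highest CD28 count came without labeled replicate 1 and the highest PDGFR count without control replicate 1. HEXIM1 averaged 0.715 to 0.787 and the 7SK sum -0.099 to -0.002. Values that changed sign ran from -0.228 to 0.102 for LARP7, -0.185 to 0.053 for CDK9, -0.123 to 0.086 for CCNT1 and -0.186 to 0.018 for CCNT2 in Lyn11 cells, -0.146 to 0.055 for CCNT2 in Lck cells, -0.165 to 0.043 for CDK9 and -0.079 to 0.179 for CCNT2 in CD28 cells, and -0.179 to 0.012 for CCNT1 and -0.179 to 0.069 for CCNT2 in PDGFR cells. Between sides they ran from -0.063 to 0.068 for CDK9 and -0.149 to 0.003 for CCNT2, and in controls from -0.037 to 0.143 for LARP7, -0.097 to 0.128 for MEPCE and -0.059 to 0.074 for CCNT2. Median centring gave 0.048 for CDK9 in CD28 cells, 0.003 for the CCNT2 average and -0.071 for CDK9 between sides. Quantile normalization gave 0.006 for CCNT1 between sides. Without both libraries named above, CCNT2 gave -0.079 in CD28 cells, 0.069 in PDGFR cells and 0.074 between controls, CDK9 gave 0.076 between sides and MEPCE gave -0.081 between controls.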
